A study of Homo sapiens with 7 samples.

Results

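The genes described here are 44 human noncoding genes: 28 small nucleolar RNA host genes, named SNHG and a number, and 16 other noncoding genes chosen by name. The 16 are GAS5, ZFAS1, EPB41L4A-AS1, DANCR, MIR22HG, MIR17HG, MIR31HG, MALAT1, NEAT1, NORAD, TUG1, OIP5-AS1, KCNQ1OT1, PVT1, CYTOR and H19. They are 44 of the 60675 gene identifiers in the deposited count table, and 36 of them were among the 16583 genes with enough counts to be tested. The samples were cultures of MDA-MB-231, an established human line of triple-negative breast cancer, and their RNA was sequenced. The siDEPDC1 group (4 libraries, labelled DEPDC1 KD) received siRNA against DEPDC1, a gene that encodes a DEP domain protein. The siCTL group (3 libraries, labelled DEPDC1 WT) received a control siRNA. Both groups were given 5 µl of a 20 µM siRNA stock with Lipofectamine RNAiMAX, had their medium changed 8 h later and were harvested on day 2, and all 7 libraries were made from total RNA with a TruSeq RNA kit. The siRNA sequences, and whether single duplexes or pools were used, are not stated in the labels. Nor do the labels say that each library had a culture of its own, so the p-values cover the spread among these 7 libraries, part or all of which may be technical.

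Small nucleolar RNAs (snoRNAs) guide the methylation and pseudouridylation of ribosomal and spliceosomal RNA. In vertebrates most are cut from introns of host genes, and the spliced exons of a noncoding host are left as a separate RNA. Several such spliced RNAs start with a run of pyrimidines, as ribosomal protein mRNAs do, and are degraded in the cytoplasm by nonsense-mediated decay, so a host's exon level need not follow the level of its snoRNAs. Of the other genes, MIR22HG, MIR17HG and MIR31HG host microRNAs. Several others act as long RNAs themselves: MALAT1 in nuclear speckles, NEAT1 as the scaffold of paraspeckles and NORAD as a cytoplasmic RNA that binds Pumilio proteins. KCNQ1OT1 acts in imprinting.

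DEPDC1 itself had 15.3, 12.7, 13.4 and 11.9 CPM (counts scaled to a common library size with TMM factors) in the siDEPDC1 libraries, against 114, 119 and 120 CPM in the siCTL libraries. Library totals were 7690583 to 13483305 counts in siDEPDC1 and 11704246 to 15360409 in siCTL. Across all tested genes 17.9% were lower and 16.5% were higher in siDEPDC1 at an adjusted p under 0.05 (edgeR's quasi-likelihood test, Benjamini-Hochberg over all 16583 genes). The line's markers VIM, AXL, CD44, MSN, CAV1, ITGB1, ZEB1 and SPARC summed to between 7632 and 8084 CPM in siDEPDC1 and between 7716 and 7982 CPM in siCTL. VIM made up the largest part, and SPARC reached no more than 1.07 CPM in any library. Of the 7 tested, CAV1 (-0.42) and ZEB1 (-0.36) were lower and ITGB1 (0.17) was higher in siDEPDC1. Of 7 genes listed as low or absent in such cells, ESR1 and PGR stayed under 1 CPM in every library and FOXA1 was at 1.14 CPM in siDEPDC1 and 1.16 CPM in siCTL. Against that list, ERBB2 was at 66 CPM in siDEPDC1 and 64.5 CPM in siCTL, EPCAM at 11.6 CPM in siDEPDC1 and 10.4 CPM in siCTL, and GATA3 at 7.13 CPM in siDEPDC1 and 6.71 CPM in siCTL. CDH1, at 0.372 CPM in siDEPDC1 and 1.11 CPM in siCTL, was lower (-1.55, edgeR adjusted p = 0.003). The part of these marker changes in the results below was not tested. Of 12 markers of other cell types, HBB was at 0 in every library and 5 were tested, of which COL1A1 and CD14 were higher in siDEPDC1. The 12 summed to between 57.1 and 63.3 CPM in siDEPDC1 and between 39.5 and 43.1 CPM in siCTL, and without COL1A1 to between 27.6 and 31 CPM in siDEPDC1 and between 25.1 and 30.9 CPM in siCTL. The part of COL1A1-expressing or other cells in the results below was not tested. In bulk RNA, fewer cells expressing a gene and less of its RNA per cell cannot be told apart.

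Of the 36 tested genes, 7 fell in siDEPDC1 (SNHG16, TUG1, NORAD, NEAT1, SNHG1, GAS5 and KCNQ1OT1), 3 rose (SNHG5, SNHG3 and DANCR) and 26 did not pass the test. That is 27.8% called, where 34.4% of all tested genes were called in either direction, and 21.7% of the 2757 tested genes of a long noncoding type in GENCODE 29. The median log2 fold change was -0.06 over the 36 genes and 0.00 over all tested genes, and the median size of the change was 0.19 in both. The groups did not overlap, with siDEPDC1 lower, in 11 of the 36 genes, where 19.6% of all tested genes did so, and with siDEPDC1 higher in 4, where 17.7% did so. Without siDEPDC1 replicate 1 the number that rose was 5, SNHG6 and SNHG22 being added. The 22 tested SNHG genes had 2 lower and 2 higher, with a median of 0.05. The 4 snoRNA hosts without an SNHG name (GAS5, ZFAS1, EPB41L4A-AS1 and DANCR) had 1 lower and 1 higher. Of the 8 tested long noncoding RNAs that are neither snoRNA nor microRNA hosts in this grouping, 4 were lower and none higher, with a median of -0.32. Changes were small: the largest called fold was 1.53, for SNHG16. The plot of log2 fold changes of the tested genes shows both directions among the SNHG genes.

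**Figure D1:**
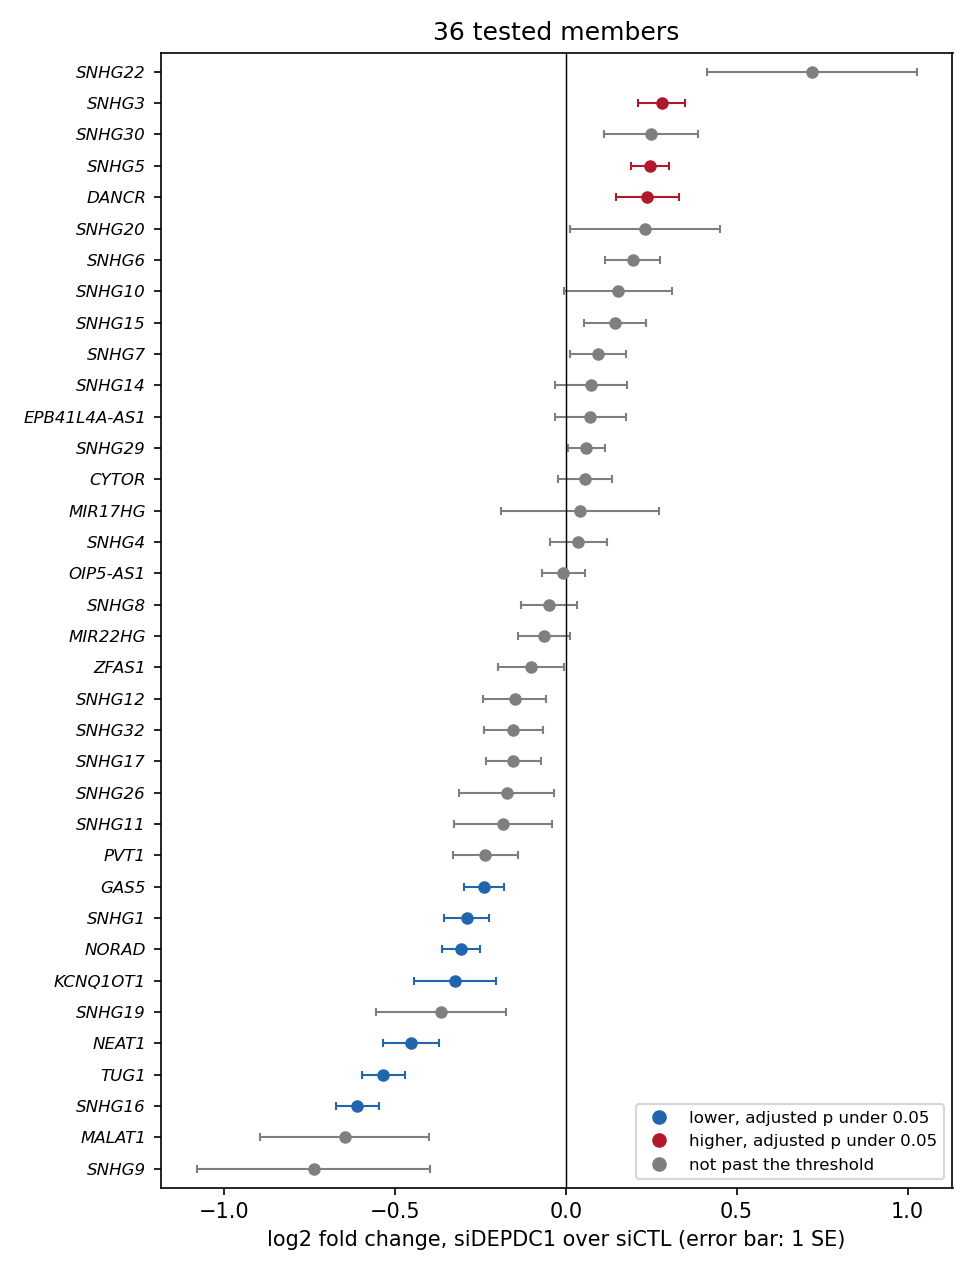
Log2 fold change, siDEPDC1 over siCTL, of the 36 tested genes (horizontal axis), each on its own line, with error bars of 1 SE; blue genes were lower and red genes higher at an adjusted p under 0.05, grey genes did not pass. The values run from -0.74 for SNHG9 to 0.72 for SNHG22, both grey with wide error bars.

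Among the snoRNA host genes, SNHG16 fell most. SNHG16 (ENSG00000163597, chr17:76557766-76565348, plus strand, GRCh38) hosts box C/D snoRNAs and has been studied as a growth-promoting RNA in several cancers. It had 61.5, 62.1, 63 and 56 CPM in the siDEPDC1 libraries, against 92.8, 95.8 and 88.6 CPM in the siCTL libraries. The highest siDEPDC1 library lay well below the lowest siCTL library. The log2 fold change was -0.61 ± 0.062 (SE), or 1.53-fold lower (edgeR adjusted p = 8.1e-10).

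SNHG1 and GAS5 fell by less. SNHG1 (ENSG00000255717, chr11:62851988-62855914, minus strand) is the host long known as UHG, a spliced RNA with little coding capacity whose introns carry several box C/D snoRNAs. It had 67.4, 68.8, 66.4 and 57.1 CPM in siDEPDC1, against 76.8, 78.4 and 83.1 CPM in siCTL (log2 fold change -0.29 ± 0.066, edgeR adjusted p = 0.0007). GAS5 (ENSG00000234741, chr1:173863900-173868882, minus strand), first described as a transcript that accumulates in growth-arrested cells and a known target of nonsense-mediated decay, had 84.9, 83.2, 82.6 and 76.1 CPM in siDEPDC1, against 94.7, 95.5 and 99 CPM in siCTL. Its log2 fold change was -0.24 ± 0.059 (edgeR adjusted p = 0.0018). In both genes the siDEPDC1 and siCTL libraries did not overlap, and siDEPDC1 replicate 4 was the lowest library.

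SNHG5, SNHG3 and DANCR went the other way. SNHG5 (ENSG00000203875, chr6:85660950-85678748, minus strand), a host of the box C/D snoRNA SNORD50, had 113, 119, 122 and 116 CPM in siDEPDC1, against 99.8, 99.2 and 97.5 CPM in siCTL (log2 fold change 0.25 ± 0.057, edgeR adjusted p = 0.00085). SNHG3 (ENSG00000242125, chr1:28505980-28510892, plus strand), which hosts the box H/ACA snoRNA SNORA73, had 48, 50, 47.7 and 46.7 CPM in siDEPDC1, against 38.4, 38.9 and 41.9 CPM in siCTL. Its log2 fold change was 0.28 ± 0.069 (edgeR adjusted p = 0.0016). Every siDEPDC1 library was above every siCTL library in both. DANCR (ENSG00000226950, chr4:52712404-52720351, plus strand), named as an RNA that holds back differentiation of progenitor cells, had 16.6, 19.9, 17.3 and 18 CPM in siDEPDC1, against 15.9, 15.4 and 14.6 CPM in siCTL, a log2 fold change of 0.24 ± 0.093. The groups did not overlap, but the call was narrow (edgeR adjusted p = 0.043) and was lost in 9 of 14 alternative fits, among them leaving out siDEPDC1 replicate 2, 3 or 4 or any single siCTL library, with adjusted p up to 0.18.

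**Figure D2:**
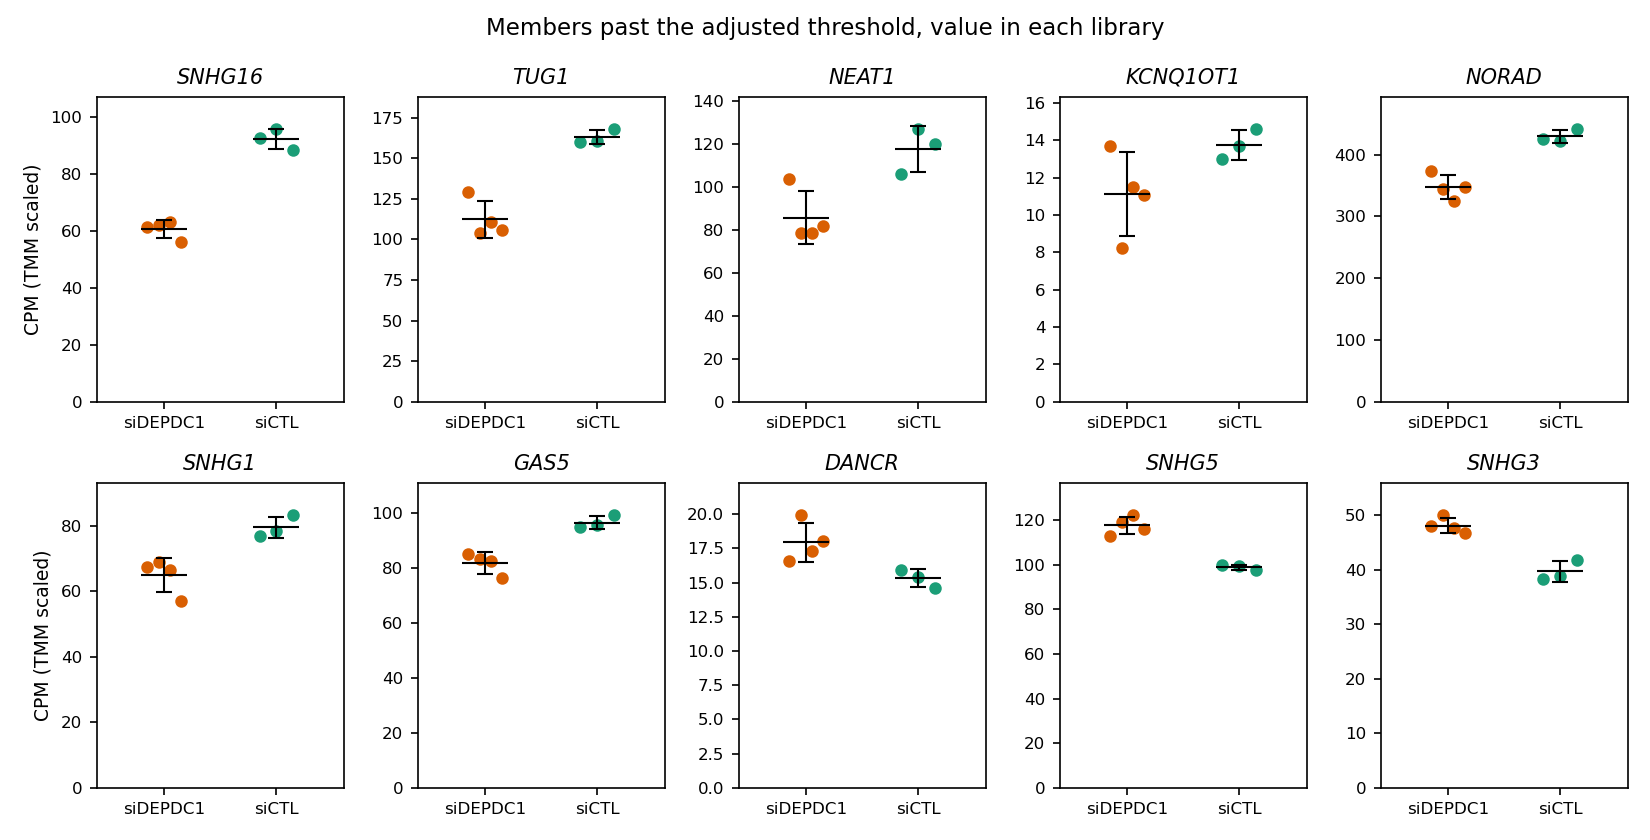
TMM-scaled CPM of the 10 genes past the adjusted threshold, 1 panel per gene with its own axis from 0, siDEPDC1 (4 libraries, orange) left of siCTL (3 libraries, green); bars are the mean and SD. The groups are separate in every panel but KCNQ1OT1, where the highest siDEPDC1 library, at 13.7 CPM, lies within the siCTL range.

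The starts of these host RNAs are shown because the pyrimidine-rich start is the feature that ties them to ribosomal protein mRNAs. Each line below gives 50 bases from RefSeq promoters (GRCh38.p14), 20 before the annotated RNA start and 30 from it, 5′ to 3′ on the gene's strand, with the word CTTT in capitals where it lies in the first 20 bases of the RNA.
SNHG16, chr17:76557744-76557793, plus: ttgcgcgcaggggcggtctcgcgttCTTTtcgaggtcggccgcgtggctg
SNHG5, chr6:85678704-85678753, minus: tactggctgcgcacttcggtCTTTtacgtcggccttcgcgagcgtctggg
ZFAS1, chr20:49278622-49278671, plus: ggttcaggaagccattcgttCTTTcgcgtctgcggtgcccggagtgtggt
SNHG1, chr11:62855856-62855905, minus: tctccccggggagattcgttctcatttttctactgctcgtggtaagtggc
SNHG3, chr1:28505923-28505972, plus: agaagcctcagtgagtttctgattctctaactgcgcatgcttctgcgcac

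SNHG16, which fell, SNHG5, which rose, and ZFAS1, which did not pass, all hold this word in the first 20 bases of the RNA, at base 1 in SNHG5 and ZFAS1 and from base 6 in SNHG16, so the word alone does not separate the directions among these 3. RefSeq starts were found for 37 of the 44 genes. CTTT on the RNA's own strand was in the first 20 bases of 8 of them, or 21.6%, where 8.22% of 35116 RefSeq promoters held it (6.5% on the opposite strand). All 8 were among the 28 snoRNA hosts with a start (SNHG4, SNHG5, SNHG12, SNHG16, SNHG19, SNHG26, SNHG32 and ZFAS1), and none was among the 9 others. Beside SNHG16 and SNHG5, their log2 fold changes ran from -0.36 for SNHG19 to 0.04 for SNHG4, none past the test. An annotated start can differ from the one used in these cells, and a missing match says only that these letters are not in this window. The palindromic MYC-type word CACGTG, searched over 250 bases before to 50 after the start, was at NORAD, TUG1, OIP5-AS1, SNHG7 and SNHG30, or 5 of 37, where 7.26% of all promoters held it.

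The other snoRNA hosts did not pass. Nearest to the threshold were SNHG6 (log2 fold change 0.20 ± 0.080, edgeR adjusted p = 0.054), SNHG22 (0.72 ± 0.307, edgeR adjusted p = 0.067) and SNHG9 (-0.74 ± 0.342, edgeR adjusted p = 0.093). SNHG6 had 35.2, 43.8, 39.2 and 36.9 CPM in siDEPDC1, against 32, 32.6 and 37.4 CPM in siCTL, and it was called higher in 7 of 14 alternative fits. SNHG22 rested on 9 to 22 counts per siDEPDC1 library and 9 to 14 per siCTL library, and SNHG9 on 4 to 10 per siDEPDC1 library and 12 to 17 per siCTL library. SNHG29, the most abundant SNHG gene, had 273, 299, 295 and 276 CPM in siDEPDC1, against 268, 277 and 277 CPM in siCTL, and the groups overlapped (0.06 ± 0.054, edgeR adjusted p = 0.42). The other 14 tested SNHG genes ran from -0.36 for SNHG19 to 0.25 for SNHG30. ZFAS1, the RNA antisense to the start of ZNFX1 (-0.10), and EPB41L4A-AS1 (0.07) were likewise not called.

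Seen as a share of all counts, the 28 SNHG genes together took 0.0829 ± 0.00304% in siDEPDC1 and 0.0817 ± 0.000993% in siCTL (SD, n = 4 and 3), a difference smaller than the SD of the siDEPDC1 libraries. SNHG16 and SNHG1 were lower within this near-constant sum while SNHG5 and SNHG3 were higher. The snoRNAs themselves were hardly counted. Among the rows of the deposited count table, GENCODE 29 places 145 snoRNA or scaRNA genes inside 31 of the 44 genes, 84 of them in SNHG14. A snoRNA gene without a row there is not in these numbers, and none was found for GAS5 or SNHG27. All small RNA rows inside the 44 genes, microRNA rows included, summed to 275 counts over 7 libraries. The levels given here are counts on the rows of the hosts, not of the snoRNAs.

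Among the long noncoding RNAs that are not snoRNA hosts, TUG1, NORAD and NEAT1 fell. TUG1 (ENSG00000253352, chr22:30969245-30979395, plus strand), first described in the developing retina of the mouse and found in nucleus and cytoplasm, had 129, 104, 111 and 106 CPM in siDEPDC1, against 160, 161 and 168 CPM in siCTL. The groups were far apart, with siDEPDC1 replicate 1 nearest to siCTL (log2 fold change -0.53 ± 0.063, 1.45-fold lower, edgeR adjusted p = 2.1e-08). NORAD (ENSG00000260032, chr20:36045622-36050960, minus strand) had 373, 344, 325 and 347 CPM in siDEPDC1, against 425, 422 and 441 CPM in siCTL. The groups did not overlap and the log2 fold change was -0.31 ± 0.055 (edgeR adjusted p = 3.8e-05).

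NEAT1 (ENSG00000245532, chr11:65422774-65445540, plus strand) had 104, 78.7, 78.5 and 82.1 CPM in siDEPDC1, against 106, 127 and 120 CPM in siCTL. The siDEPDC1 replicates 2, 3 and 4 lay close together and replicate 1 was just under the lowest siCTL library. The log2 fold change was -0.45 ± 0.081 (edgeR adjusted p = 0.0001) and -0.55 ± 0.063 without siDEPDC1 replicate 1. KCNQ1OT1 (ENSG00000269821, chr11:2608328-2699994, minus strand), the antisense RNA of the imprinted KCNQ1 locus, had 13.7, 8.25, 11.5 and 11.1 CPM in siDEPDC1, against 13, 13.7 and 14.6 CPM in siCTL, and the groups overlapped. Its call (-0.32 ± 0.120, edgeR adjusted p = 0.034) was lost in 8 of 14 alternative fits, among them leaving out siDEPDC1 replicate 2, 3 or 4 or siCTL replicate 2 or 3. Without siDEPDC1 replicate 2, the lowest library, the log2 fold change was -0.18 (edgeR adjusted p = 0.26).

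MALAT1 had the largest difference in mean CPM of the 44 genes (297 ± 61 in siDEPDC1 and 466 ± 117 in siCTL, SD, n = 4 and 3) and did not pass the test. MALAT1 (ENSG00000251562, chr11:65497688-65506516, plus strand) had 378, 298, 232 and 279 CPM in siDEPDC1, against 519, 332 and 546 CPM in siCTL. It varied by 20.5% (coefficient of variation) within siDEPDC1 and 25.1% within siCTL, and siDEPDC1 replicate 1 lay above siCTL replicate 2. The log2 fold change was -0.65 ± 0.247 (edgeR adjusted p = 0.11). It was called lower by DESeq2 (-0.65, DESeq2 adjusted p = 0.035), by limma-voom (-0.63, limma adjusted p = 0.00011) and in edgeR without siCTL replicate 2 (-0.84, edgeR adjusted p = 0.021). PVT1 was at -0.24 ± 0.095 (edgeR adjusted p = 0.052). OIP5-AS1, which had 103, 91.8, 92.2 and 88.4 CPM in siDEPDC1 and 87.4, 99.1 and 95.9 CPM in siCTL, was at -0.01 ± 0.063, and CYTOR was at 0.06 ± 0.079. CYTOR has a near-identical copy, MIR4435-2HG (66.4 CPM in siDEPDC1 and 71.7 CPM in siCTL, not called), and reads from the 2 genes may be split between them in an unknown way.

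In siDEPDC1 replicate 1, 5 of the 7 lower genes (TUG1, NEAT1, KCNQ1OT1, NORAD and GAS5) and MALAT1 had their highest siDEPDC1 level, and DEPDC1 was also highest there, at 15.3 CPM. Over all 36 tested genes this library was the highest of the 4 for 13 and the lowest for 11. The part of this library's DEPDC1 level in these values was not tested. The 44 genes together took 0.201 ± 0.0124% of counts in siDEPDC1 and 0.231 ± 0.0108% in siCTL (SD, n = 4 and 3). MALAT1 alone took 0.0299 ± 0.00649% in siDEPDC1 and 0.0459 ± 0.0113% in siCTL, and the 7 lower genes 0.0769 ± 0.00555% in siDEPDC1 and 0.0978 ± 0.00242% in siCTL.

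The genes differed widely in level, as the plot of level against change shows. By mean CPM over all libraries NORAD ranked 366, MALAT1 395 and SNHG29 559 of 16583 tested genes, and only these 3 of the 44 were in the top 1000. The median level was 22.1 CPM over the 36 tested genes, 19.3 over all tested genes and 3.6 over tested genes of a long noncoding type. Per kilobase of annotated exon, NORAD was at 65 CPM in siDEPDC1 and 80.4 CPM in siCTL, and SNHG29 at 76 CPM in siDEPDC1 and 72.9 CPM in siCTL. SNHG29 was thus the highest of the 36 per kilobase in siDEPDC1, and NORAD in siCTL. MALAT1 had 33.6 CPM per kilobase in siDEPDC1 and 52.8 in siCTL, and SNHG5 had 41.8 in siDEPDC1 and 35.2 in siCTL. The lowest was KCNQ1OT1, whose annotated exon spans 91667 bases, at 0.121 CPM per kilobase in siDEPDC1 and 0.15 in siCTL.

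**Figure D3:**
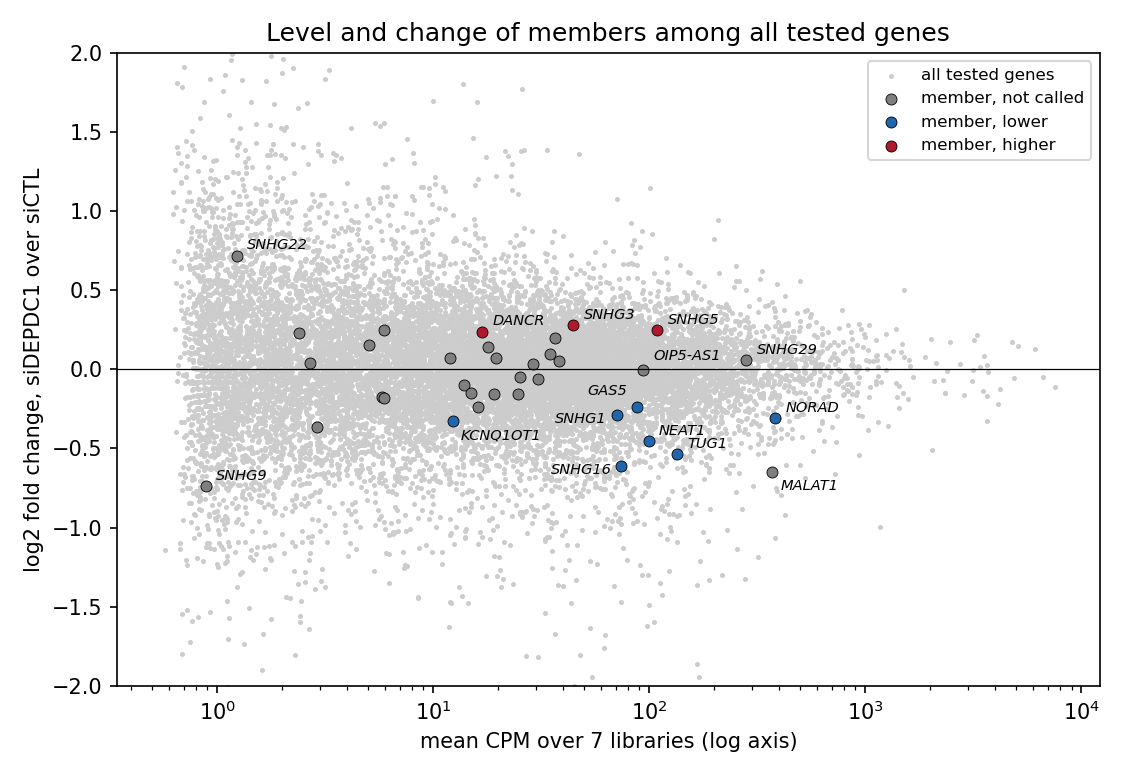
Log2 fold change, siDEPDC1 over siCTL (vertical axis), against mean CPM over 7 libraries (horizontal log axis); small grey points are all tested genes except 16 outside the plotted range of 2, large points are the 36 tested genes of the text, blue lower, red higher, dark grey not called. The lower genes SNHG16, TUG1, NEAT1 and NORAD lie at the abundant end, and SNHG22 and SNHG9, which have the widest changes, lie at the rare end.

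Whether the counting used strand is not stated in the labels, so genes on opposite strands of the same bases may share reads. Of the tested genes, 17 have a tested gene annotated over them on the opposite strand, in 19 pairs. SNHG16 is overlapped by ENSG00000284526, whose exons cover 30.6% of the exon bases of SNHG16, and this gene was at -0.64 ± 0.070 (36 CPM in siDEPDC1 and 55.8 CPM in siCTL, edgeR adjusted p = 5.4e-09), next to -0.61 for SNHG16. TUG1 is overlapped by ENSG00000269972 (-0.51) and ENSG00000269987 (-0.47), both lower, which together cover 7.98% of its exon bases. Without the strand, reads of the partners in these and the other pairs cannot be told apart where their exons overlap. ZFAS1 (-0.10) and ZNFX1 (-0.10) also had like values, neither called, with 26.1% of the exon bases of ZFAS1 under opposite exons. Some pairs went different ways. OIP5-AS1 was at -0.01 while OIP5, which it overlaps and which helps load the centromeric histone, rose by 0.50 ± 0.106 (16.1 CPM in siDEPDC1 and 11.4 CPM in siCTL, edgeR adjusted p = 0.00035). SNHG10 was at 0.15 while GLRX5, an iron-sulfur cluster protein, fell by 0.30 ± 0.073 (edgeR adjusted p = 0.0012). In the same direction, SNHG6 was at 0.20 and MCMDC2, an MCM-domain gene known from meiosis in mice, rose by 0.32 ± 0.099 (edgeR adjusted p = 0.011). Exons of MCMDC2 lie over 29.3% of the exon bases of SNHG6.

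**Figure D4:**
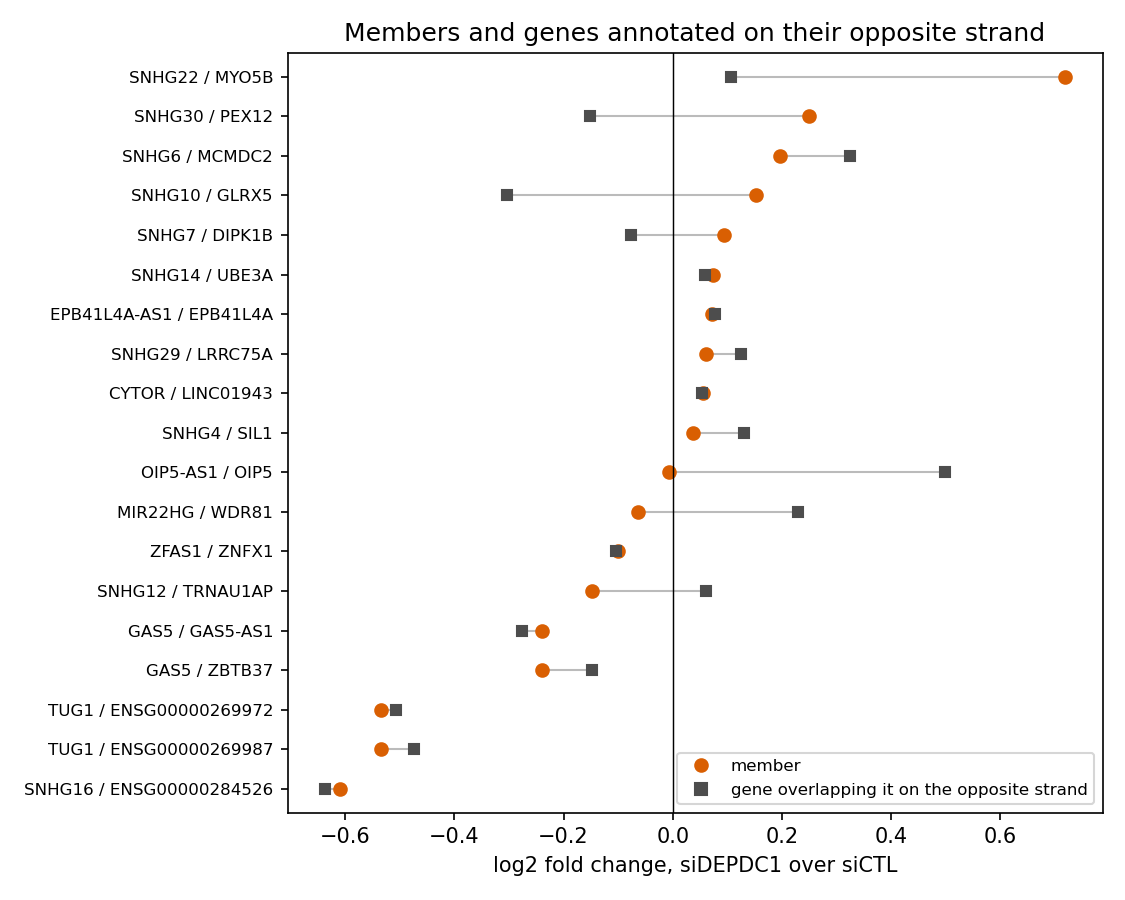
Log2 fold change, siDEPDC1 over siCTL (horizontal axis), of 17 tested genes (orange circles) and of the tested genes that overlap them on the opposite strand (grey squares), 1 line per pair, 19 pairs. The partners of SNHG16 and TUG1 lie beside them on the negative side, while OIP5 at 0.50 and GLRX5 at -0.30 lie away from OIP5-AS1 at -0.01 and SNHG10 at 0.15.

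Of the called genes, TUG1, SNHG1 and SNHG3 have a tested gene that overlaps on the same strand or starts close by in the other direction without overlap. Among these 3 neighbours 1 was called. ZBTB37, which overlaps the start of GAS5 on the opposite strand, was at -0.15 and not called. MORC2, which starts within 1000 bases of TUG1 in the other direction, fell by 0.25 ± 0.068 (edgeR adjusted p = 0.0039). SLC3A2, the heavy chain of amino acid transporters, starts beside SNHG1 and was at 0.03. RCC1, the exchange factor of the RAN GTPase, shares its strand and locus with SNHG3 and was at -0.01 while SNHG3 rose. SNHG3 lies wholly inside the annotated span of RCC1. Where genes on the same strand share exon bases, as these may, even stranded counting cannot tell their reads apart. Beside genes that were not called, RPS2, a ribosomal protein gene next to SNHG9, was at 0.11, and SEC14L1, which overlaps SNHG20 on the same strand, fell by 0.56 ± 0.053 (edgeR adjusted p = 1.4e-10) while SNHG20 was at 0.23 and not called.

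NORAD is known for repeated sites for Pumilio proteins, which bind the word TGTANATA, and 3 of its copies are shown with 11 bases on the 5′ side (GENCODE 29, GRCh38, minus strand, word in capitals).
NORAD, chr20:36047971-36048000: caaccctactgTGTATATAgcggacaaact
NORAD, chr20:36049803-36049832: cctcactactgTGTATATAgttgacaatgc
NORAD, chr20:36046344-36046373: attagcctattTGTAAATAcctttgttata

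Searched on the strand of the transcript, NORAD held 15 copies, or 2.81 per kilobase, and 5 of 16396 tested genes with a transcript sequence held at least as many, while the median gene held 0. PUM2, one of the Pumilio proteins that NORAD binds, was lower too, at 125, 116, 125 and 109 CPM in siDEPDC1, against 141, 143 and 145 CPM in siCTL (log2 fold change -0.27 ± 0.058, edgeR adjusted p = 0.00037).

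A 7-base word, GATAACT, had been picked in earlier work on these same data because genes carrying it in the 3′ untranslated region were lower in siDEPDC1, so its presence here supports nothing further. It was searched on the transcript strand of all GENCODE 29 transcripts of each gene, and 17% of tested genes held it in at least 1 transcript. Of the 36 tested genes 10 held it: 5 that fell (SNHG16, TUG1, NEAT1, SNHG1 and KCNQ1OT1), DANCR, which rose, and SNHG29, CYTOR, SNHG14 and SNHG7, which were not called. NORAD and GAS5 fell without it. The copies in TUG1 and SNHG16 are shown because these genes fell most.
TUG1, chr22:30971494-30971523, plus: tagttggagcaGATAACTttcagtgtagcc
TUG1, chr22:30972187-30972216, plus: aattgctatgtGATAACTtacattactctt
TUG1, chr22:30975872-30975901, plus: cgtgtgcaagaGATAACTatgaaagccaaa
SNHG16, chr17:76565274-76565303, plus: aagtgctgtgtGATAACTtgtttggatgag

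In TUG1 19 of 20 annotated transcripts held a copy, in SNHG16 2 of 8, in NEAT1 1 of 8 and in SNHG1 3 of 25. Of tested genes with a like exon length, 33.7% held the word for TUG1 and 17.4% for SNHG16. The share was 61% for NEAT1, 12.3% for SNHG1 and 6.97% for DANCR. Among the genes not called it was 12.3% for SNHG29, 53.8% for CYTOR, 64.7% for SNHG14 and 14.2% for SNHG7. KCNQ1OT1 had no other tested gene of like length.

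The microRNA hosts did not change by the test. MIR22HG was at -0.06 ± 0.075 and MIR17HG, which carries the miR-17-92 cluster, at 0.04 ± 0.231 on 19 to 34 counts per siDEPDC1 library and 29 to 39 per siCTL library. MIR31HG, the host of miR-31, had 0 counts in all 7 libraries. Within 1 Mb on each side of MIR31HG, 54 of 61 genes were also at 0, among them CDKN2A and CDKN2B, the cell cycle inhibitor genes, and MTAP had 4 counts in all. FOCAD, in the same window, had 316 counts. MLLT3, which reaches past the edge of the window and is not among the 61, had 1413 counts. H19 had 2 to 5 counts in siDEPDC1 and 6 to 8 in siCTL. Also below the filter were SNHG31 (5 to 10 counts in siDEPDC1 and 5 to 9 in siCTL), SNHG21 (4 to 8 in siDEPDC1 and 3 to 7 in siCTL) and SNHG25 (0 to 3 in both). SNHG27, SNHG18 and SNHG28 had 0 counts in siDEPDC1 and 0 to 2 per library in siCTL. GENCODE 29 also gives the name SNHG28 to ENSG00000256029, which overlaps SNHG28 on the same strand and was not tested. This second entry had 7, 6, 2 and 5 counts in siDEPDC1 and 10, 9 and 12 in siCTL.

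Protein genes that act on these RNAs changed in both directions, as the plot of related protein genes shows. Of 18 genes for the snoRNA-protein core and its assembly, 5 fell and 3 rose (44.4% called, where 34.4% of all tested genes were), with a median log2 fold change of -0.04. ZNHIT6, an assembly factor of box C/D particles, fell by 0.73 ± 0.078 (25.7 ± 2.36 CPM in siDEPDC1 and 42.8 ± 2.23 CPM in siCTL, edgeR adjusted p = 2.4e-09). NOLC1, a nucleolar chaperone of these particles, fell by 0.40 ± 0.055 and DKC1, the pseudouridine synthase of box H/ACA particles, by 0.36 ± 0.057 (edgeR adjusted p = 3.6e-07 and 4.7e-06). PIH1D1 and RUVBL2, of the R2TP co-chaperone complex, rose by 0.20 and 0.19. The higher count was 0 without siCTL replicate 3, and 1 without siDEPDC1 replicate 2 or 3 or siCTL replicate 1. Of 35 further snoRNA hosts, protein-coding except for CCT6P1, 8 fell and 1 rose, with NOP56 at -0.28, GNL3 at -0.29 and TAF1D at -0.33, against RPSA at 0.15. That is 25.7% called, against 34.4% of all tested genes. Among the 8, the rows of RPL17 and CCT6P1 held few reads. RPL17 was at 3.84 CPM in siDEPDC1 and 5.71 CPM in siCTL, and CCT6P1 at 4.22 CPM in siDEPDC1 and 5.5 CPM in siCTL. The single rise, RPSA, was lost without siDEPDC1 replicate 2, 3 or 4 or siCTL replicate 1 or 3, and 5 rose without siDEPDC1 replicate 1.

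Of 17 nonsense-mediated decay genes, 6 fell and 1 rose, which is 41.2% called, where 34.4% of all tested genes were called. PNRC2, a decapping adaptor, fell by 0.65 ± 0.074 (48.6 ± 6.13 CPM in siDEPDC1 and 76.4 ± 3.38 CPM in siCTL, edgeR adjusted p = 1.2e-08), SMG1, the kinase of UPF1, by 0.26 and UPF3A by 0.22, while the helicase DHX34 rose by 0.27. The lower count was 3 without siCTL replicate 1, and the higher count 2 without siDEPDC1 replicate 1. Of 17 paraspeckle protein genes, 5 fell and 2 rose, again 41.2%, against 34.4% of all tested genes. Among the 5 is a MATR3 row at only 2.36 CPM in siDEPDC1 and 3.46 CPM in siCTL. Another MATR3 entry, which overlaps it, had 8 counts over 7 libraries. TAF15 (-0.23) and HNRNPK (-0.18) fell, PSPC1 (0.21) and NUDT21 (0.16) rose, and the lower count was 2 without siDEPDC1 replicate 3 and 3 without siDEPDC1 replicate 2 or siCTL replicate 1 or 2. The higher count was 1 without siDEPDC1 replicate 2 or 3 and 0 without siCTL replicate 1 or 2. Of 19 genes for proteins that bind or process these RNAs, 5 fell and 3 rose, or 42.1%, where all tested genes had 34.4%. Among them DICER1, the nuclease that makes microRNAs, fell by 0.49 ± 0.066 and METTL3, the m6A methyltransferase, by 0.30 ± 0.072, while its partner METTL14 rose by 0.24 ± 0.079 and EZH2, of the Polycomb complex, by 0.22 ± 0.060 (edgeR adjusted p = 3.5e-07, 0.0012, 0.018 and 0.0047). The higher count was 1 without siDEPDC1 replicate 2 and 0 without siCTL replicate 1.

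Of 12 tested transcription factors of MYC, p53, E2F and stress programmes, 3 fell and 4 rose, which is 58.3% of this short list, where 34.4% of all tested genes were called. MYC, a known activator of several snoRNA hosts, had 86.7, 98, 93.1 and 96.7 CPM in siDEPDC1, against 76.5, 80.4 and 75.8 CPM in siCTL, and rose by 0.27 ± 0.061 (edgeR adjusted p = 0.00062). Its groups did not overlap. E2F1 rose by 0.41, while ATF2 and the MYC antagonist MXD1 fell by 0.35 and 0.36. Over the 6 lists the medians lay between -0.07 and -0.01, near the median of all tested genes.

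**Figure D5:**
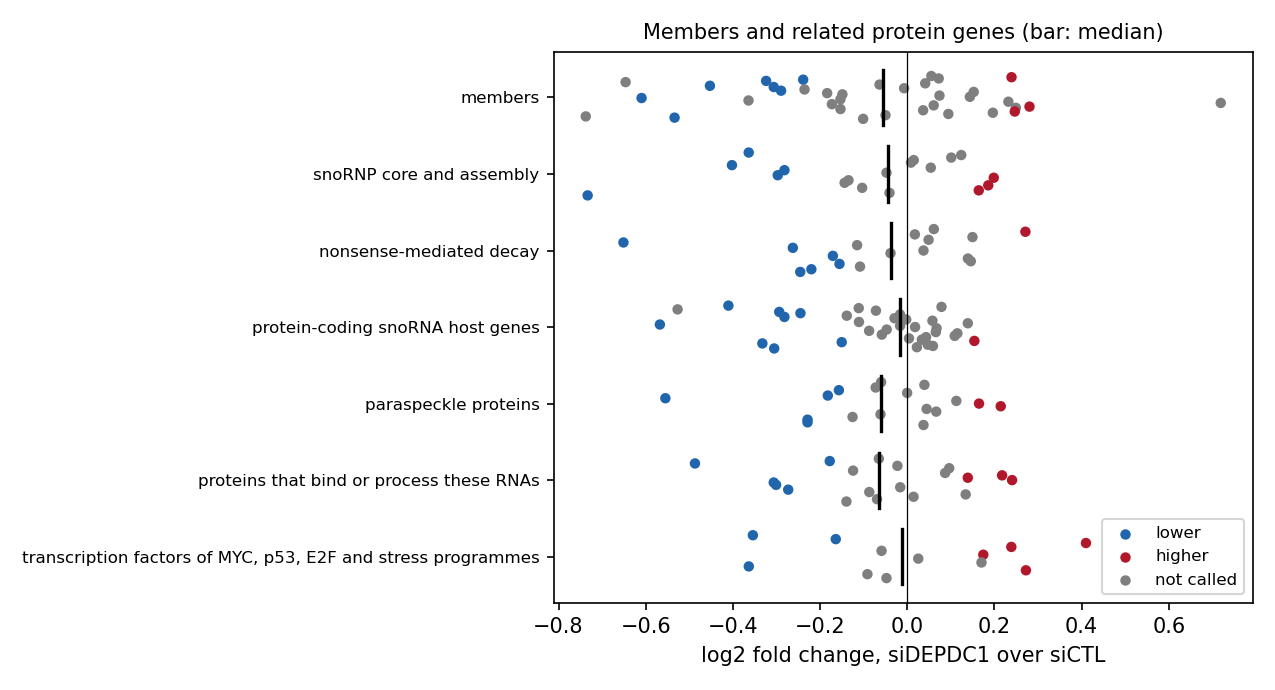
Log2 fold change, siDEPDC1 over siCTL (horizontal axis), of the 36 tested genes and of 6 lists of related protein genes, 1 point per gene, spread vertically for sight only; blue lower, red higher, grey not called, bars are medians. Each row has points on both sides of 0, with medians between -0.07 and -0.01.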

How the data were processed

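RNA of 4 siDEPDC1 and 3 siCTL libraries was analysed from the authors' deposited table of raw counts per Ensembl gene, with no normalization in the values and 0 columns of other samples. Per the submitters' processing notes, the build was GRCh38 and FastQC, STAR 2.7.9a and DESeq2 were named, with no role or order. Neither labels nor notes name the read counter, its annotation or strand mode, or any poly(A) selection. Symbols came from the name table for 60419 of 60675 identifiers, and coordinates from GENCODE 29 (GRCh38), which held 58444 of them.

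The test was edgeR 4.0.16 under R 4.3.3, run on counts as deposited (filterByExpr by group, TMM, robust glmQLFit, glmQLFTest, two-sided, group as the only term, Benjamini-Hochberg at 0.05 over all tested genes). "Lower", "higher", "rose" and "fell" mean past that threshold, fold changes are siDEPDC1 over siCTL, and the SE is the one implied by the F statistic. Totals of 7690583 to 15360409 counts per library limit precision for rare genes. The test was checked on simulated counts. Alternatives were DESeq2 1.42.0, limma 3.58.1 (voom), other scalings and filters, a replicate block and each library left out. All libraries were used.

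The 44 genes and all lists were chosen with earlier results of these data known. Values per library are given for called genes of the 44 and the 5 most abundant, and also for DEPDC1, SNHG6, OIP5-AS1, PUM2 and MYC. From each related list up to 3 called genes with the smallest adjusted p, and up to 2 in the minority direction, were named. SNHG6, OIP5-AS1, MATR3, RPL17, CCT6P1 and genes that neighbour the 44 were named after their values were seen.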

Additional observations from a re-analysis of the deposited data

Results flagged for a closer look

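In 37 sets of 4 siDEPDC1 values (the 36 tested genes and DEPDC1), the highest or lowest library was checked for a gap to its neighbour beyond Dixon's 95% critical value for 4 samples. Chance passes about 1 in 20 sets, and 2 of 37 passed, both in siDEPDC1 replicate 1. NEAT1 had 104 CPM there, against 78.5, 78.7 and 82.1 CPM in the other siDEPDC1 libraries (gap of 0.861 of the range). SNHG19 had 1.96 CPM there, against 2.73, 2.76 and 2.87 CPM in the other siDEPDC1 libraries (0.846).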

How the results depend on the processing

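SNHG16, TUG1, NORAD, NEAT1, SNHG1, GAS5, SNHG5 and SNHG3 kept their calls and directions in all 14 alternatives. The number of genes called lower among the 44 was 7, and 6 to 8 over the alternatives, also 6 to 8 with 1 library left out. The number called higher was 3, and 2 to 5 both over the alternatives and with 1 library left out. It was 5 without siDEPDC1 replicate 1, where SNHG6 (edgeR adjusted p = 0.014) and SNHG22 (edgeR adjusted p = 0.019) were added; the cause was not tested. DANCR lost its call in 9 alternatives (adjusted p up to 0.18) and KCNQ1OT1 in 8 (up to 0.26). SNHG6 was gained in 7, MALAT1 in 3, PVT1 in 2 (adjusted p = 0.04 in each, without siDEPDC1 replicate 1 or 2) and SNHG22 in 1. Replicate numbers did not pair the libraries: deviations of libraries with the same number correlated at -0.116, -0.042 and 0.003. With a replicate block on 6 libraries, 6 of the 44 genes were lower and 3 higher, no snoRNP gene was higher and 2 decay genes were lower. Library size alone gave 4 higher genes among the 35 further snoRNA hosts, in place of 1. DEPDC1 stayed between -3.22 and -3.10. Counts over all genes ran from 2359 to 3159 lower and 2132 to 3247 higher. The 8 untested genes had too few counts for the filter.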
